A study of Mus musculus with 45 samples.

Results

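The 10 genes described here belong to the p53 pathway and its arm that leads to apoptosis: Trp53, Cdkn1a, Mdm2, Ccng1, Bax, Bbc3, Pmaip1, Trp53inp1, Phlda3 and Eda2r. They were taken by gene symbol from the 34994 genes of the joined count tables. All 10 were present and all 10 passed the filter on low counts in every comparison. Read counts were scaled to library size as CPM (reads of a gene relative to all reads of its library, on a fixed scale) after correction for library composition. On mm10 the 4 genes with the largest rises in culture are protein-coding genes at chr17:29090976-29100727 (Cdkn1a, plus strand), chr11:40748552-40755311 (Ccng1, minus strand), chr1:135766119-135769136 (Phlda3, plus strand) and chrX:97333840-97377216 (Eda2r, minus strand). The fewest reads for any of them in 1 library were 16, for Eda2r.

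The protein p53, encoded by Trp53, is a transcription factor that is held low by the ubiquitin ligase Mdm2 and accumulates mainly because its breakdown is blocked, so that the mRNA level of Trp53 says little about p53 activity. Active p53 binds response elements built from a pair of short, near-symmetrical decamers, and raises genes that stop the cell cycle (Cdkn1a, which encodes the CDK inhibitor p21), that feed back on p53 (Mdm2, and Ccng1, which encodes cyclin G1) or that open the mitochondrial path to cell death (Bax, Bbc3, Pmaip1). In the limb bud, programmed cell death shapes the tissue between the digits, and p21 is known to rise as muscle and cartilage cells leave the cell cycle, so several of these genes are also read in normal limb development.

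Forelimb buds of CD1 mouse embryos at gestation day 13 were pooled, with male and female limbs in 1 culture, and kept in bottles with the vehicle dimethyl sulfoxide (DMSO, the control), with bisphenol S (BPS, a substitute for bisphenol A in plastics and paper coatings) at 10 µM, or with BPS at 50 µM. RNA was taken after 3, 24 or 48 h, which gave 9 groups of 5 libraries. The series is titled as a study of bisphenols, endochondral ossification and the transcriptome of cultured limb buds, and this data set holds the BPS arm. For 50 µM at 48 h the strain field runs from CD2 to CD6 over the 5 libraries, which were treated as CD1 like all others. Whether the 5 libraries of a group stem from different cultures or litters is not given, and the p-values therefore describe spread among libraries that may be technical repeats.

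Reads counted to genes per library ran from 15.2 M to 23.1 M with a median of 18.2 M (M, 1e6 reads), so that 3 reads stood for 0.13 to 0.197 CPM. The forelimb factor Tbx5 lay between 191.8 and 323.7 CPM and the limb mesenchyme factor Prrx1 between 378.8 and 592.4 CPM, while the hindlimb factor Pitx1 stayed between 2.33 and 7.38 CPM. Control replicate 1 at 48 h differed most from the other libraries of its group: the chi-square of its counts against each of them, divided by the degrees of freedom, was 15.7 to 36.1, and that of the other pairs was 6.59 to 15.5. Calls and differences of the 10 genes at 48 h that rest on it are given with and without it beside the result or in the closing section.

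Sequence upstream of the genes is shown because the pair of p53 decamers is the feature that the target genes are known for. RefSeq windows on GRCm38.p6 (the same build as mm10, which the files use), from 250 bases before to 50 after each annotated start, were given for 8 of the 10 genes. They were searched for the p53 consensus decamer, which reads the same on both strands, so that a search of 1 strand covers both. The decamer was found in 5 of the 8 genes (62.5%): Cdkn1a, Ccng1, Mdm2, Bax and Trp53. Of all 27025 genes with a window, 9.55% held it, and of the 32851 windows of this length 8.36% did. The upstream start of Cdkn1a held 2 decamers 12 bases apart, within the 13 bases allowed between them here, and 20 of all genes (0.074%) held such a pair. No pair was found among 24 other known p53 targets with a window, of which 9 (37.5%) held 1 decamer or more. The 250 bases before this Cdkn1a start, on the plus strand at chr17:29090729-29090978, read as follows, with the decamers in capitals:
Cdkn1a: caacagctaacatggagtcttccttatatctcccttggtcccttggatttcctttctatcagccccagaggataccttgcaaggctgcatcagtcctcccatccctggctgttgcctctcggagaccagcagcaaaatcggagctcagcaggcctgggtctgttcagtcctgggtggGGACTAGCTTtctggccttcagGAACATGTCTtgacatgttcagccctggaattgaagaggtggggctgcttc

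The decamer nearer the start is followed at once by 10 bases that miss the consensus in 1 position. Ccng1 shows the mirror of this, with 10 bases in front of its decamer that miss it in 1 position. In Mdm2, Bax and Trp53 the bases on either side miss it in 3 to 6 positions. For these genes the decamer is shown in capitals with 10 bases on each side, on the coding strand.
Ccng1: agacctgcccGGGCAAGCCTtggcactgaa
Mdm2: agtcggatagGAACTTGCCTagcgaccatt
Bax: agcatatcccAGGCAAGCTTtgaacttgcg
Trp53: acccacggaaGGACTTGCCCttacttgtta

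These stretches lie at chr11:40755452-40755481 for Ccng1, chr10:117710925-117710954 for Mdm2, chr7:45467080-45467109 for Bax and chr11:69580274-69580303 for Trp53. The windows of Phlda3, Bbc3 and Eda2r held no decamer, which says only that these letters are not in the windows searched. A match is a description of sequence, and no binding of p53 was measured in this series.

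Levels of different genes were compared per transcript length, as the deposited FPKM values (fragments scaled to transcript length and library size). In control limbs at 3 h Trp53 led with 37.7 ± 2.09 FPKM (SD, n = 5), followed by Bax at 27.1 ± 1.88 FPKM. Cdkn1a, Trp53inp1 and Mdm2 came next at 17.4, 17.2 and 16.2 FPKM, and neighbours among these 3 overlapped in their libraries. Ccng1 at 14.0 ± 0.914 FPKM and Phlda3 at 13.0 ± 1.27 FPKM also overlapped. Bbc3 (7.90 ± 1.34 FPKM), Pmaip1 (4.79 ± 0.867 FPKM) and Eda2r (0.344 ± 0.079 FPKM) followed, each below all libraries of the gene before it.

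By 48 h the order in control limbs had changed at the top. Cdkn1a stood first at 62.9 ± 6.86 FPKM, above all libraries of Ccng1 at 40.5 ± 7.59 FPKM. Bax at 39.4 ± 2.68 FPKM and Phlda3 at 39.1 ± 2.41 FPKM could not be told from Ccng1 by their library ranges. Trp53 came after these by its mean of 33.1 ± 1.85 FPKM, below all libraries of Bax and Phlda3 but overlapping those of Ccng1. Eda2r stayed last at 3.28 ± 0.947 FPKM, now overlapping Pmaip1 at 6.84 ± 1.58 FPKM.

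**Figure D1:**
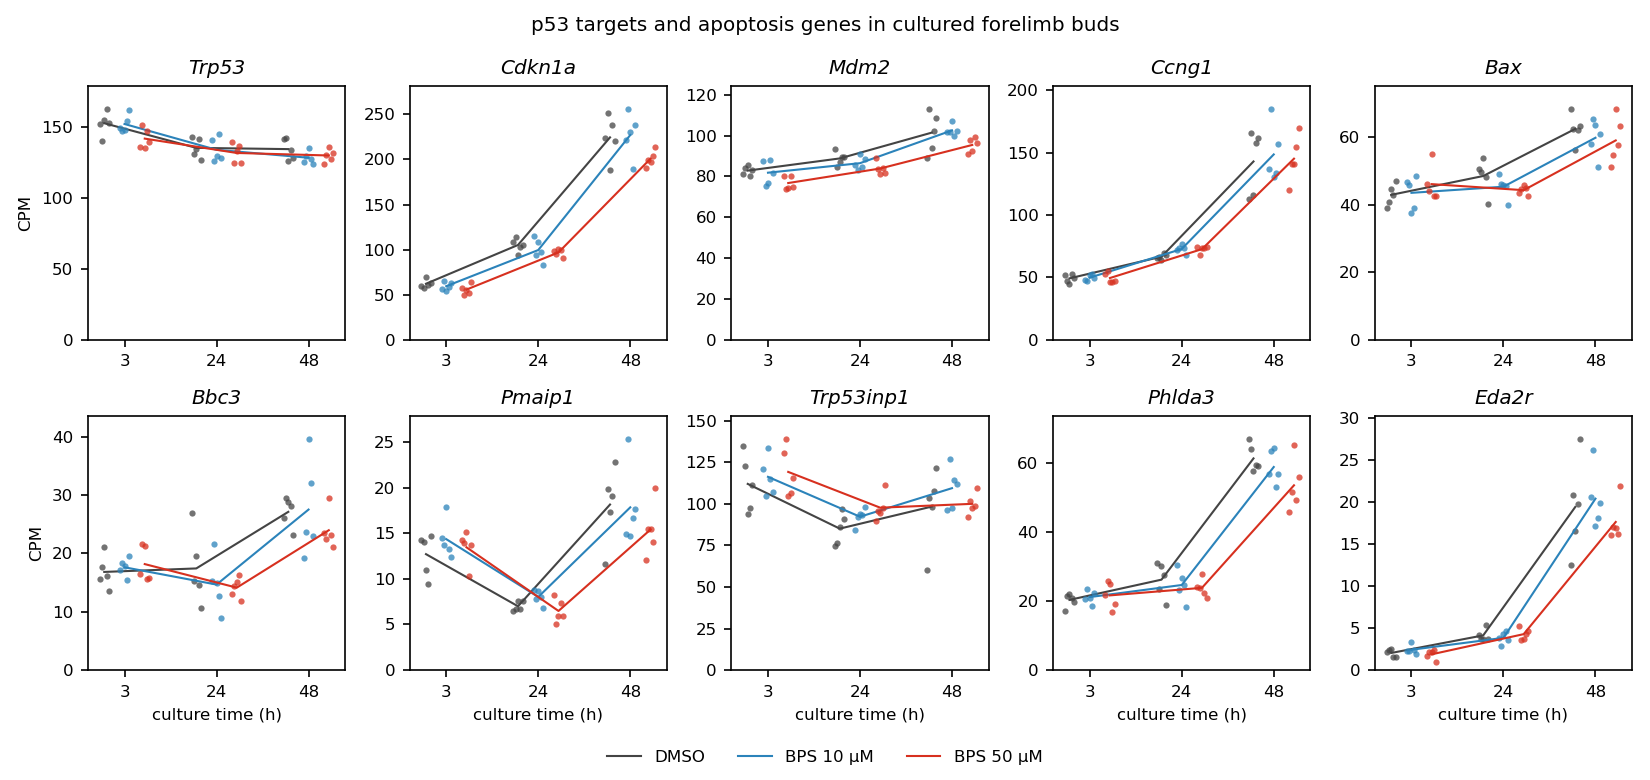
CPM of each gene (y axis, linear, from 0) against culture time (x axis, h) in control, 10 µM and 50 µM BPS limbs; points are single libraries and lines join group means of 5. Cdkn1a, Ccng1, Phlda3 and Eda2r climb at every dose, Pmaip1 dips at 24 h at every dose, and the library ranges of each BPS dose overlap those of control limbs at each time.

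The first comparison asked how the genes changed in control limbs over the first interval of culture, from 3 to 24 h. Of the 10 genes, 4 rose and 3 fell at an edgeR adjusted p below 0.05. Over all genes tested 40.2% were called, 20% higher and 20.1% lower. Library ranges did not overlap for 4 of the 10 genes, against 27.6% of all genes. The median log2 change was 0.12 over the 10 genes and -0.01 over all genes.

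Cdkn1a, the p21 gene, stood at 59.6, 57.3, 70.2, 60.6 and 63.0 CPM in the 5 control libraries at 3 h. At 24 h it stood at 108.5, 114.4, 94.4, 102.8 and 105.6 CPM, and at 48 h at 223.9, 251.2, 188.8, 238.5 and 220.0 CPM. No library of a later time reached down to an earlier one. The rise over the first interval was 0.74 on the log2 scale, with a standard error of 0.063 and an edgeR adjusted p of 6e-09. In bulk RNA, more cells that express a gene and more RNA per cell cannot be told apart, and this holds for every change below.

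Ccng1, whose product cyclin G1 brings a phosphatase to Mdm2, read 51.8, 47.4, 44.8, 52.4 and 49.5 CPM at 3 h in control limbs. It read 65.8, 66.2, 63.8, 69.3 and 67.5 CPM at 24 h and 113.0, 165.7, 116.0, 157.6 and 161.8 CPM at 48 h. The 3 sets of libraries were apart from each other, and the libraries at 48 h split into a lower pair and a higher group of 3. The first interval gave a log2 rise of 0.42 ± 0.056 (SE).

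Eda2r encodes a receptor of the TNF receptor family that binds the EDA-A2 form of ectodysplasin. It was the scarcest of the genes, at 2.17, 2.42, 2.5, 1.55 and 1.53 CPM at 3 h and at 4.21, 3.67, 3.68, 5.39 and 3.66 CPM at 24 h. Already at 24 h all libraries lay above those at 3 h, with a log2 rise of 0.99 ± 0.196 (SE). Its 48 h values of 12.4, 20.9, 16.5, 19.7 and 27.4 CPM were in turn all above those at 24 h.

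Phlda3, whose product binds membrane phosphoinositides and holds back the kinase Akt, read 17.2, 21.6, 22.1, 20.9 and 19.7 CPM at 3 h and 30.9, 23.4, 30.2, 27.5 and 18.8 CPM at 24 h. The groups overlapped through 1 library at 24 h. The log2 rise of 0.35 ± 0.117 (SE) passed the test at an edgeR adjusted p of 0.024, but leaving out any 1 of 5 of the 10 libraries ended the call, at adjusted p values of 0.0514 to 0.0676. Those libraries were control replicates 1 and 5 at 3 h and control replicates 1, 3 and 4 at 24 h.

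Pmaip1, which encodes the BH3-only protein Noxa, went the other way. Its control libraries read 14.3, 14.1, 11.01, 9.43 and 14.7 CPM at 3 h and 6.44, 6.71, 7.57, 6.74 and 7.55 CPM at 24 h. All 24 h libraries were below all 3 h libraries, a fall by 0.88 on the log2 scale with a standard error of 0.126 and an edgeR adjusted p of 9.2e-06. Trp53inp1, a stress-induced nuclear protein that takes part in p53-driven death and autophagy, fell by 0.41 from a mean of 112.0 to 85.1 CPM, and its groups overlapped. Trp53 itself fell by 0.19 from 152.9 to 135.5 CPM, also with overlap.

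Mdm2, Bax and Bbc3 were not called over the first interval. Bax, the effector that opens the outer mitochondrial membrane, had a log2 change of 0.16 ± 0.073 (SE) with an edgeR adjusted p of 0.089. Without control replicate 5 at 24 h, its lowest library there, the log2 change was 0.22 and was called at an edgeR adjusted p of 0.00727. Bbc3, which encodes the BH3-only protein Puma, ranged from 10.7 to 27.0 CPM at 24 h, wider than the 13.6 to 21.1 CPM at 3 h, and the 95% interval of its change ran from -28.5% to 46%.

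**Figure D2:**
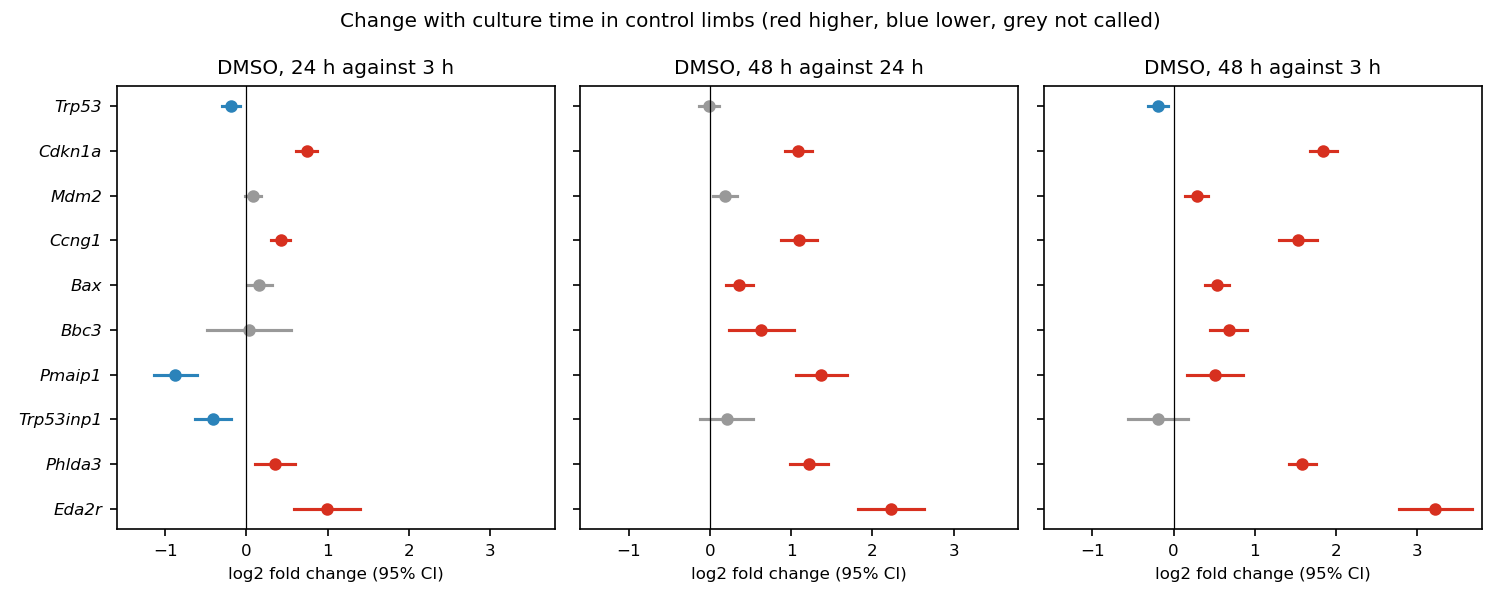
Log2 fold change of each gene (x axis) in control limbs for 24 h against 3 h, 48 h against 24 h and 48 h against 3 h; points are edgeR estimates, bars are 95% confidence intervals, red and blue mark genes called higher or lower. Pmaip1 crosses from -0.88 to 1.37 between the first and the second interval, and Eda2r has the largest rise of the 10 in each panel.

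Over the second interval, from 24 to 48 h, 7 of the 10 genes rose and none fell in control limbs, where 16% of all genes were called, 9.44% higher and 6.55% lower. Library ranges did not overlap for 6 of the 10 genes, against 12.8% of all genes. The median log2 change was 0.86 over the 10 genes and -0.01 over all genes.

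Eda2r rose most, by a log2 change of 2.23 ± 0.190 (SE), a 4.69-fold rise (edgeR adjusted p = 1.73e-06). Pmaip1 recovered past its 3 h level, with 48 h libraries at 11.6, 19.9, 17.4, 19.1 and 22.8 CPM and a log2 change of 1.37 ± 0.149 (SE). Phlda3 read 66.7, 63.8, 57.5, 59.2 and 58.9 CPM at 48 h, which put every library far above the 24 h range of 18.8 to 30.9 CPM. Its log2 rise was 1.22 ± 0.111 (SE). Cdkn1a and Ccng1 rose to a like extent, by 1.089 ± 0.077 and 1.098 ± 0.103 (SE).

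Of the mitochondrial death genes, Pmaip1 is given above. Bax went from a mean of 48.4 to 62.4 CPM, with no overlap between libraries and a log2 rise of 0.36 ± 0.079 (SE). Bbc3 went from 17.4 ± 6.22 to 27.1 ± 2.59 CPM (SD, n = 5), a log2 rise of 0.63 ± 0.187 (SE) at an edgeR adjusted p of 0.0335. The Bbc3 call was lost without a filter on low counts (adjusted p = 0.145) and when any 1 of 6 of the 10 libraries was left out (0.0636 to 0.0891). Those were control replicates 2 and 4 at 24 h and control replicates 1, 2, 3 and 4 at 48 h.

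Mdm2, Trp53inp1 and Trp53 were not called between 24 and 48 h. Mdm2 moved from 88.8 ± 3.23 to 101.4 ± 9.80 CPM (SD, n = 5), a log2 change of 0.19 with an edgeR adjusted p of 0.0785. It was called without control replicate 1 at 48 h (log2 0.24, edgeR adjusted p = 0.0109), without control replicate 3 at 48 h (0.21, adjusted p = 0.0496) and in a fit of all 45 libraries (0.19, adjusted p = 0.00262). Trp53inp1 read 60.4 CPM in control replicate 1 at 48 h and 98.4 to 121.8 CPM in the other 4 libraries. Its log2 change was 0.21 with that library (edgeR adjusted p = 0.414) and 0.34 without it (adjusted p = 0.00654). Without that library 8 of the 10 genes were called, Mdm2 and Trp53inp1 gained and Bbc3 lost. The share of all genes called without it is not given here.

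From end to end, 48 h against 3 h in control limbs, 8 genes rose and 1 fell, where 49.3% of all genes were called, 24.5% higher and 24.8% lower. Library ranges did not overlap for 7 of the 10 genes, against 36% of all genes. Folds were 9.36 for Eda2r, 3.59 for Cdkn1a, 3.00 for Phlda3, 2.89 for Ccng1, 1.60 for Bbc3, 1.45 for Bax, 1.42 for Pmaip1 and 1.22 for Mdm2. Trp53 was the gene that fell, by 0.19 on the log2 scale, to 134.6 ± 7.46 CPM (SD, n = 5). Trp53inp1 was not called at -0.20, with a 95% interval of its change from -32.4% to 12.8%. Without control replicate 1 at 48 h the Trp53inp1 difference was -0.05 (edgeR adjusted p = 0.721).

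The 2 intervals were then compared with each other by a contrast in the fit of all 45 libraries, added after the control time course had been seen. The change from 24 to 48 h exceeded the change from 3 to 24 h for 5 of the 10 genes, where 14.8% of all genes were called, 6.78% in this direction and 8.04% in the other. Pmaip1 showed the largest difference, 2.25 ± 0.282 (SE) on the log2 scale (edgeR adjusted p = 5.4e-08). Eda2r followed at 1.25, then Phlda3 at 0.88, Ccng1 at 0.69 and Trp53inp1 at 0.62.

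The Trp53inp1 difference in this contrast was the least firm: leaving out any 1 of 8 of the 15 control libraries ended its call, at edgeR adjusted p values of 0.051 to 0.111. Those were control replicates 1 and 2 at 3 h, 1, 2 and 3 at 24 h, and 2, 4 and 5 at 48 h. It was also lost with no filter on low counts, with limma-voom and in a fit of the 15 control libraries alone (adjusted p = 0.0562 to 0.175). Cdkn1a rose in both intervals, and the difference of 0.35 between them was not called (edgeR adjusted p = 0.0613). It was called without control replicate 2 at 24 h (adjusted p = 0.0384) and without control replicate 3 at 48 h (0.0171). Bbc3, at 0.61 and not called, was called without control replicate 1 at 24 h (1.03, adjusted p = 0.0325).

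The limbs changed in makeup over the same hours. Of 12 cartilage markers 11 were higher at 48 h than at 24 h in control limbs, and their summed level went from 11850 to 13000 CPM at 24 h to 14690 to 22810 CPM at 48 h. Of 8 markers of hypertrophic cartilage, the mature form that is replaced by bone, 5 were higher, with sums of 299.3 to 441.6 CPM and then 642.6 to 1251 CPM. For skeletal muscle 6 of 12 markers were higher, with sums of 2623 to 4028 CPM and then 3749 to 5518 CPM.

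Of 12 macrophage markers 10 were higher over the second interval, with sums of 143.7 to 194.6 CPM and then 237.5 to 322.3 CPM. For epidermis 4 of 12 tested markers were higher, with sums of 187.4 to 432.9 CPM and then 591.9 to 957.6 CPM. Of 14 markers of limb mesenchyme 9 were lower, from 1779 to 2063 CPM down to 1394 to 1651 CPM, and of 9 genes of RNA quality and stress 2 were higher. Of 9 tested erythroid markers 6 were lower and of 10 endothelial markers 1 was lower, with erythroid sums of 1216 to 2197 CPM and then 664.7 to 1310 CPM. Over the first interval 11 of 12 cartilage and 11 of 11 tested muscle markers were higher, and 10 of 10 endothelial and 5 of 9 stress markers were lower. In the same interval 8 of 12 macrophage markers were higher and 1 lower, 6 of 7 tested markers of hypertrophic cartilage were higher, 8 of 14 of mesenchyme were lower and 1 higher, 7 of 11 erythroid markers were lower, and 2 of 10 tested epidermal markers were higher and 4 lower. None of these lists held a marker at 0 in all control libraries at 24 h or at 48 h. The part of these shifts in the changes of the p53 pathway genes was not tested.

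The time comparisons were repeated within BPS limbs. At 10 µM, 3 genes rose and 3 fell from 3 to 24 h, where 42.9% of all genes were called (21.4% higher, 21.5% lower). Then 9 rose from 24 to 48 h, where 24.1% of all genes were called (13.5% higher, 10.6% lower). From 3 to 48 h 7 rose and 1 fell, against 55% of all genes (27.7% higher, 27.3% lower). At 50 µM, 3 rose and 3 fell in the first interval, against 43.4% of all genes (21.1% higher, 22.3% lower). In the second 8 rose, against 28.5% of all genes (14.5% higher, 13.9% lower), and from end to end 7 rose and 2 fell, against 57.5% (28.3% higher, 29.2% lower). These comparisons were added after the control time course had been seen. The rise of Bbc3 from 24 to 48 h at 10 µM was the least firm of these calls: it was lost without any 1 of 7 of the 10 libraries, at edgeR adjusted p values of 0.0553 to 0.0842.

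Cdkn1a in 50 µM limbs read 57.9, 49.6, 55.1, 52.1 and 63.5 CPM at 3 h, 98.0, 95.5, 100.8, 99.1 and 90.9 CPM at 24 h, and 190.5, 199.9, 196.7, 203.7 and 213.6 CPM at 48 h. The 3 times did not overlap here either. The log2 change from 3 to 48 h was 1.94 at 10 µM, 1.84 at 50 µM and 1.84 in control limbs. Eda2r gave 3.07, 3.19 and 3.23 in the same order. Pmaip1 fell over the first interval by 0.85 at 10 µM and by 1.07 at 50 µM, and rose over the second by 1.15 and 1.24.

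Culture time accounted for 97.2% of the variance of log2 CPM over the 45 libraries for Cdkn1a, 95.7% for Ccng1, 95.1% for Eda2r and 92.2% for Phlda3. Dose within a time accounted for 0.3% to 0.8% in these 4 genes. The dose share was largest for Trp53 (9.7%) and Trp53inp1 (9.0%), which also had large shares between libraries of 1 group, 34.3% and 55.9%. Mdm2 came next at 8.1%, with 18.8% between libraries of 1 group. A dose share also takes in spread between libraries, and these shares were not tested.

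The central comparison of the study set BPS limbs against control limbs of the same culture time. None of the 10 genes was called at 10 µM or at 50 µM at any time by edgeR. Among all genes 0% were called at 10 µM at each of the 3 times. At 50 µM 0.0538% were called at 3 h (0.0299% higher, 0.0239% lower), 0.375% at 24 h (0.248% higher, 0.127% lower) and 1% at 48 h (0.48% higher, 0.522% lower). Without adjustment, p was below 0.05 for 0, 1 and 0 of the 10 genes at 10 µM and for 2, 2 and 2 at 50 µM. Over all genes tested at 10 µM this held for 329 of 16654, 494 of 16529 and 438 of 16725, at 3, 24 and 48 h. At 50 µM it held for 1334 of 16722, 2048 of 16512 and 2157 of 16663. DESeq2 and limma-voom called none of the 10 genes either. Library ranges of treated and control limbs overlapped for each of the 10 genes in all 6 comparisons. Among all genes they did not overlap for 0.42%, 0.532% and 0.484% at 10 µM and for 1.69%, 2.82% and 3.56% at 50 µM, at 3, 24 and 48 h.

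At 50 µM, the lowest unadjusted p values fell on the following genes. At 3 h Cdkn1a was at 55.7 ± 5.38 CPM against 62.1 ± 4.92 CPM in control limbs (SD, n = 5 each), a difference of -0.16 on the log2 scale (edgeR adjusted p = 0.566) with a 95% interval from -18.8% to -1.17%. Mdm2 differed by -0.11 there, with an interval from -13.4% to -0.499%. At 24 h Ccng1 stood at 72.6 ± 2.85 against 66.5 ± 2.02 CPM, a difference of 0.13 (edgeR adjusted p = 0.274). At 10 µM and 24 h Ccng1 stood at 72.7 ± 3.24 CPM, a difference of 0.13 (edgeR adjusted p = 0.999), with an interval from 1.5% to 17.5%. Both doses were set against the same 5 control libraries, so these Ccng1 differences are not independent of each other. Ccng1 libraries at 24 h ran from 63.8 to 69.3 CPM in control limbs, 68.0 to 76.8 CPM at 10 µM and 67.6 to 74.4 CPM at 50 µM.

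Trp53inp1 read 89.8, 95.5, 94.5, 97.6 and 111.2 CPM at 50 µM and 24 h, against 74.8, 76.7, 86.2, 96.9 and 91.1 CPM in control limbs. The 2 sets overlap, and the highest control library lay above 3 of the 5 treated ones. The difference was 0.21 with an edgeR adjusted p of 0.251 and a 95% interval from 3.62% to 28.5%. At 24 h same-numbered libraries of the 2 groups deviated together. With the replicate number as a block the difference was again 0.21 and was called, at an edgeR adjusted p of 0.00762, the single call among the 10 genes in any BPS comparison and setting. The share of all genes called with the block is not given here, so this call cannot be set against it.

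At 48 h and 50 µM, 8 of the 10 differences were below 0, with a median of -0.12 against -0.004 over all genes, and none was called. Without control replicate 1 at 48 h all 10 were below 0, with a median of -0.15, and again none was called. The signs that turned were those of Ccng1 (0.017 with that library, -0.057 without it) and Trp53inp1 (0.019 and -0.115). Pmaip1 moved from -0.24 to -0.37, Eda2r from -0.15 to -0.27 and Bax from -0.09 to -0.06. At 10 µM and 48 h, 6 of 10 differences were above 0 with that library and 3 of 10 without it. For the fits without that library, the median and the share below 0 over all genes are not given here. The 10 differences of a comparison rest on the same libraries, so their signs are not independent of each other.

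At 50 µM and 48 h the lowest unadjusted p values fell on Phlda3 and Cdkn1a. Phlda3 read 45.8, 51.4, 65.1, 49.1 and 55.9 CPM against 57.5 to 66.7 CPM in control limbs, so that 4 of 5 treated libraries were below every control library. The difference was -0.20 (edgeR adjusted p = 0.326), with an interval from -23.3% to -1.41%. Cdkn1a differed by -0.17 (edgeR adjusted p = 0.327), with an interval from -19.6% to -1.11%. In the same limbs 4 of 12 macrophage markers were called lower, and their sum was 162.2 to 244.3 CPM against 237.5 to 322.3 CPM. Of 10 endothelial markers 1 was called lower, with sums of 241.4 to 299.2 CPM against 266.9 to 380.5 CPM. Of 9 genes of RNA quality and stress none was called, and their sums were 334.7 to 381.9 CPM against 381.8 to 427.7 CPM. Of 8 markers of hypertrophic cartilage 1 was called higher, with sums of 893.2 to 1114 CPM against 642.6 to 1251 CPM. No tested marker of cartilage, muscle, mesenchyme, epidermis or red cells was called. The part of these marker differences in the Phlda3 and Cdkn1a differences was not tested.

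**Figure D3:**
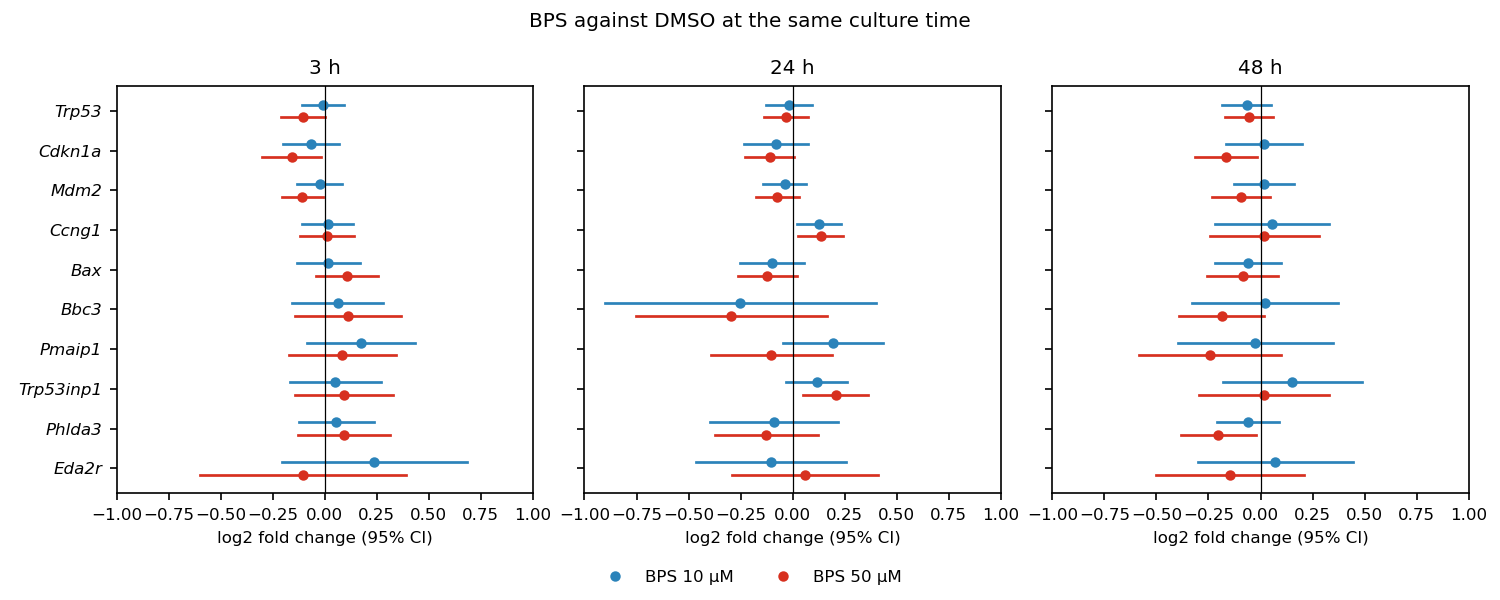
Log2 fold change against DMSO of the same culture time (x axis) for each gene at 10 µM (blue) and 50 µM BPS (red), with 3, 24 and 48 h in separate panels; points are edgeR estimates and bars are 95% confidence intervals. All estimates lie between -0.29 and 0.24, and most intervals cross 0.

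The intervals show what size of response these libraries leave possible for each gene taken alone, without adjustment for the number of genes. Whether the intervals cover spread between cultures is not known, since the libraries of a group may be technical repeats. At 10 µM they reached from -46.5% (Bbc3, 24 h) to 60.5% (Eda2r, 3 h). At 50 µM they reached from -40.6% (Bbc3, 24 h) to 33.1% (Eda2r, 24 h). For Cdkn1a the interval at 50 µM lay below 0 at 3 and 48 h and reached up to 0.436% at 24 h. The 50 µM response was also compared between times, and none of the 10 genes was called for 24 against 3 h (0% of all genes called), 48 against 3 h (0.0922%, of them 0.0597% higher and 0.0326% lower) or 48 against 24 h (0%). Unadjusted p was below 0.05 for 1, 0 and 0 of the 10 genes, and for 1212, 1538 and 640 of all 18432 genes tested.

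The authors' deposited tables, made with DESeq2, gave 7, 7 and 9 of the 10 genes at an adjusted p below 0.05 in control limbs for 24 against 3 h, 48 against 24 h and 48 against 3 h. For each BPS comparison the authors' deposited tables gave 0. Shares of all genes called in those tables were not counted. In the edgeR fits 40.2%, 16% and 49.3% of all genes were called in these control comparisons. In the BPS comparisons the edgeR shares ran from 0% to 1%.

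Other parts of the pathway were read from lists of genes with known roles, none of which was called in any BPS comparison. Their counts are to be read against the shares of all genes given above: 20% higher and 20.1% lower from 3 to 24 h, 9.44% and 6.55% from 24 to 48 h, and 24.5% and 24.8% from 3 to 48 h. Among 31 further p53 targets, 4 rose and 12 fell from 3 to 24 h in control limbs, with a median log2 change of -0.13. From 24 to 48 h 15 rose and 3 fell, with a median of 0.25. Sesn2, which encodes a sestrin that restrains mTORC1, fell from 68.0 ± 3.24 to 32.3 ± 1.89 CPM and then rose to 49.3 ± 5.04 CPM (SD, n = 5), a dip like that of Pmaip1. Btg2, an antiproliferative gene, ran from 46.6 to 32.5 to 49.7 CPM. Aen, a nuclease that acts in apoptosis, rose in the second interval by 0.79 on the log2 scale, to 54.8 ± 4.60 CPM.

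Other targets on this list differed in course. Perp, a desmosome gene of epithelia as well as a p53 target, rose from 24.2 ± 5.34 to 63.3 ± 10.4 CPM (SD, n = 5) between 24 and 48 h, while the epidermal sums given above went up. Plk2, a polo-like kinase that acts at the centriole, ran from 169.6 to 103.2 to 84.8 CPM and was lower at 48 h than at 3 h by a log2 change of -1.01. Fas, the death receptor, rose from 1.79 ± 0.606 to 5.46 ± 1.19 CPM in the second interval. How far the epidermal share took part in the rise of Perp was not tested.

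Cell cycle genes known to be shut off through p53, p21 and the DREAM complex fell as a group over the first interval: 16 of 16 were lower at 24 h than at 3 h in control limbs, with a median of -1.08. The mitotic cyclin Ccnb1 fell from 114.6 ± 7.34 to 49.8 ± 2.39 CPM (SD, n = 5) and the mitotic kinase Aurka from 59.0 ± 4.07 to 23.4 ± 2.14 CPM. From 24 to 48 h 1 of the 16 rose and none fell, with a median of 0.07, and the 1 was Birc5, which encodes survivin and counts in the list of IAP inhibitors too. That call was lost without any 1 of 8 of the 10 libraries and with limma-voom, at adjusted p values of 0.0502 to 0.113. Over the second interval the cell cycle genes were near level while Cdkn1a rose 2.13-fold. A link between Cdkn1a and the course of these genes was not tested.

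Among regulators of p53, 9 of 19 tested fell and 1 rose from 3 to 24 h. Mdm4, the partner of Mdm2 that blocks p53 as a transcription factor, was the gene that rose, from 154.0 ± 1.49 to 211.7 ± 9.98 CPM (SD, n = 5). Chek1, a kinase of the DNA damage checkpoint, fell from 40.8 to 26.3 CPM, and the deacetylase gene Sirt1 and the kinase gene Atr fell by 0.47 and 0.37 on the log2 scale. From 24 to 48 h 3 fell and none rose, Trp53bp1, Trp53bp2 and Crebbp, by 0.31, 0.29 and 0.22. The Crebbp call was lost without any 1 of 6 of the 10 libraries and with no filter on low counts (adjusted p = 0.0521 to 0.087).

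In the BCL2 family, genes of each role were counted separately. Of 8 pro-death members other than Bax, Bbc3 and Pmaip1, 5 fell from 3 to 24 h and 6 were lower at 48 h than at 3 h, with none higher. Bok ran from 9.47 ± 0.702 to 4.23 ± 0.805 to 4.48 ± 0.964 CPM (SD, n = 5). Bmf, a BH3-only gene, fell at each step, from 145.9 to 108.0 to 82.2 CPM. Of 4 tested pro-survival members 2 rose from 3 to 24 h, and Bcl2l2, which encodes Bcl-w, ran from 27.2 to 39.0 to 48.1 CPM. Its rise in the second interval was lost without any 1 of 6 of the 10 libraries (edgeR adjusted p = 0.0501 to 0.0922). Pro-death genes thus went both ways between 3 and 48 h, since Bax, Bbc3 and Pmaip1 rose.

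Of 16 tested caspase and apoptosome genes, none rose and 5 fell from 3 to 24 h. Of 18 tested, 2 rose and 2 fell from 24 to 48 h, and 4 rose and 4 fell from 3 to 48 h. The 2 that rose were Casp14, from 0.304 ± 0.130 to 3.96 ± 1.52 CPM, and Casp12, from 0.918 ± 0.176 to 2.79 ± 0.525 CPM (SD, n = 5). Casp14 is a caspase of the cornifying epidermis and no executioner of cell death, and the epidermal sums rose beside it. Casp2 and Casp6 fell by 0.32 and 0.34 on the log2 scale in the second interval, and the Casp6 call was lost without control replicate 4 at 48 h (edgeR adjusted p = 0.0525).

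Among 10 tested death receptors and adaptors, 3 rose in the second interval: Fas, Tnfrsf10b and Tnfrsf1a, by 1.60, 0.32 and 0.28 on the log2 scale. The Tnfrsf1a call was lost without control replicate 2 at 48 h (edgeR adjusted p = 0.0502). In the EDA pathway the ligand gene Eda, which gives rise to the EDA-A2 form that Eda2r binds, went from 18.6 ± 1.02 to 15.8 ± 1.504 to 19.3 ± 1.57 CPM (SD, n = 5). It fell by 0.25 over the first interval and rose by 0.29 over the second on the log2 scale, against rises of 0.99 and 2.23 for Eda2r. Both Eda calls were lost with no filter on low counts and without any 1 of 4 and any 1 of 8 of the 10 libraries, at edgeR adjusted p values of 0.051 to 0.066 and 0.0603 to 0.121. Among the 4 tested genes of this pathway, Eda2r included, 1 rose and 2 fell in the first interval and 2 rose in the second. Edaradd, the adaptor of the other EDA receptor, fell from 5.17 ± 0.843 to 2.83 ± 0.358 CPM (SD, n = 5) over the first interval.

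Among 6 tested inhibitors of cyclin-dependent kinases other than Cdkn1a, 1 rose and 2 fell in the first interval and 1 rose in the second. Cdkn1c, which encodes p57 and is known from differentiating cartilage, rose by 0.45 on the log2 scale in the first interval, and Cdkn2c, which encodes p18, by 0.62 in the second. Of 5 IAP inhibitors of caspases, Birc5 was the 1 called, lower in the first interval and, with the losses given above, higher in the second.

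**Figure D4:**
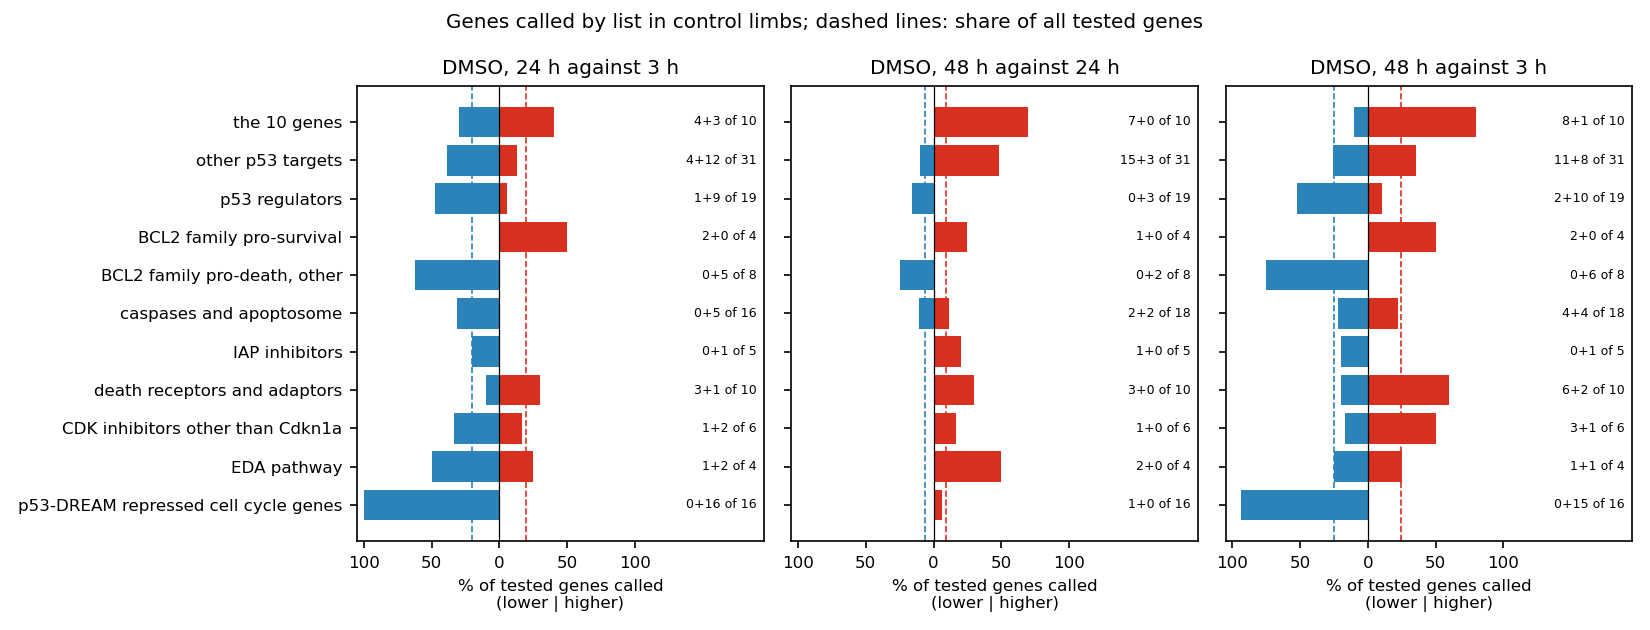
Share of tested genes called higher (red, to the right) or lower (blue, to the left) in control limbs for each gene list and each time comparison, with counts as higher+lower of tested; dashed lines give the share of all genes tested. The 10 genes described stand at 7+0 of 10 for 48 h against 24 h and the cell cycle list at 0+16 of 16 for 24 h against 3 h; the EDA list includes Eda2r.

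Some pairs of the genes varied together within groups, while other pairs showed little relation or varied in opposite directions. After the mean of each group was taken away, Bax and Phlda3 had a Pearson r of 0.73 over the 45 libraries. Pmaip1 had an r of 0.65 with Trp53inp1 and with Ccng1, Ccng1 one of 0.64 with Trp53inp1, and Bbc3 one of 0.62 with Phlda3. These were the highest values among the pairs. The lowest were -0.33 for Bax with Trp53inp1 and -0.30 for Trp53 with Trp53inp1, and Mdm2 with Bax stood at -0.04. Control replicate 1 at 48 h was the lowest of its group for Pmaip1, Ccng1 and Trp53inp1. Over the 44 libraries without it, r was 0.54 for Pmaip1 with Trp53inp1, 0.57 for Pmaip1 with Ccng1 and 0.54 for Ccng1 with Trp53inp1, and 0.73 for Bax with Phlda3. Trp53inp1 and Ccng1 were near unrelated before the group means were removed, at -0.11. These values describe libraries that share composition and depth within each library, and no test was made.

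Across all 45 libraries and 13565 genes with a mean of 1 CPM or more, the genes most like Cdkn1a in log2 CPM were Col6a1 (r = 0.99), Col1a1 (0.98) and Dlk1 (0.98), which are matrix collagen genes and an imprinted gene of progenitor cells. Eda2r was most like Ccng1 (0.97), then Col1a1 (0.97) and Col1a2 (0.97). For Phlda3 the nearest were Ass1, Sparc and Scara3 (0.98, 0.96 and 0.96). Bax was nearest to Phlda3 (0.92). Pmaip1 was nearest to Abcb1b (0.89) and to Btg2 (0.88), the latter a p53 target from the list above. Trp53, with a flatter course, was nearest to Med25 (0.86). The 45 libraries fall at 3 culture times, so that any gene with a like time course scores high on this measure.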

How the data were processed

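Poly-A RNA of 45 limb libraries was sequenced, and per the submitters' processing notes CASAVA 1.8, STAR 2.5, HTSeq 0.6.1 and DESeq2 were used with the mm10 build. The authors deposited 9 comparison tables with read counts per gene, FPKM, log2 fold changes and p-values, and no other step is given in the sources used here. Whether strand was used in counting is not given, and Cdkn1a overlaps the antisense model AC167363.2, which held a mean of 22.6 reads per library against 2326 for Cdkn1a. Tables were joined by gene identifier, and 1319925 counts present in several tables did not differ. Replicates all differed by more than counting noise, the closest pair with a chi-square of 4.42 per degree of freedom.

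From the deposited counts, edgeR 4.0.16 (R 4.3.3) was run with TMM factors, filterByExpr and the robust quasi-likelihood test on the 10 libraries of each comparison, with Benjamini-Hochberg adjustment over all genes and a threshold of 0.05. Contrasts between responses or intervals used all 45 libraries. Standard errors and 95% intervals came from these fits, and CPM used TMM factors. Alternatives were DESeq2 1.42.0 with its size factors, limma-voom 3.58.1, RLE factors, no filter, a replicate block, all 45 libraries, and leaving out each library. The test was tested on simulated counts first. The deposited FPKM served to compare genes, and the deposited log2 changes and p-values only to count the authors' calls. The log2 CPM for likeness used a prior count of 2.

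Replicate numbers come from the sample titles. Same-numbered libraries deviated together at 24 h for 50 µM against DMSO (correlations 0.123 to 0.343) and for 10 µM against DMSO (0.14 to 0.345), and in no other comparison did all 5 correlations exceed 0.1. At 3 h the correlations for 50 µM against DMSO were close to this, at 0.097 to 0.343. Named were all 10 genes in every comparison, up to 4 called genes per list and comparison by the smallest p, and the 3 most alike genes. The genes and lists were chosen with earlier results of these data known. Of the listed symbols, Xedar, Rfwd2 and Trp53rk matched no gene name. The Pmaip1 sequence is not reported here.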

Additional observations from a re-analysis of the deposited data

Results flagged for a closer look

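In 5 of the 90 sets of 5 libraries (10 genes in 9 groups) 1 library stood apart from the other 4 of its group, where chance gives about 1 in 20 sets. Mdm2 at 10 µM and 48 h read 107.4 CPM in replicate 3, with the next library at 102.1 CPM. Ccng1 at 50 µM and 24 h read 67.6 CPM in replicate 2, below 73.2 CPM in the next. Bbc3 at 50 µM and 48 h read 29.5 CPM in replicate 3, above 23.5 CPM. Pmaip1 at 10 µM and 48 h read 25.3 CPM in replicate 2, above 17.6 CPM. Eda2r at 50 µM and 48 h read 21.8 CPM in replicate 5, above 17.0 CPM.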

How the results depend on the processing

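The number of genes called stayed within 1.5 times of the reported one for all comparisons and alternatives but 1: for 50 µM against DMSO at 24 h the replicate block gave 1 call (Trp53inp1) in place of 0. The block moved no other count of calls among the 10 genes by over 1.5 times. With 1 library left out, 6 to 8 genes were called for 24 against 3 h and for 48 against 24 h in control limbs, 9 for 48 against 3 h, and 0 in every BPS comparison. Shares of all genes called are not given for these alternatives. CPM without TMM factors moved group means by at most 4.14%. Counts for the lists of few called genes were less stable: from 24 to 48 h in control limbs 3 p53 regulators were called, 7 with the replicate block and 9 in the fit of all 45 libraries. In the control time comparisons not all same-numbered libraries deviated together, and correlations ran from -0.218 to 0.34. The fewest reads limit Eda2r and Pmaip1 most.

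Sign changes occurred in differences that were not called with all libraries in the reported test, and the cause was not tested. For Bbc3 at 24 against 3 h in control limbs the log2 change was -0.028 with limma-voom and -0.009 with the replicate block, and for 10 µM against DMSO at 48 h it was -0.023 and -0.017. Trp53 at 48 against 24 h was 0.006 with no filter.

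With 1 library left out, changes that crossed 0 ranged as follows. In control limbs Bbc3 ran from -0.181 to 0.167 (24 against 3 h) and Trp53 from -0.039 to 0.008 (48 against 24 h). For 10 µM against DMSO at 3 h the ranges were -0.035 to 0.019 (Trp53), -0.046 to 0.004 (Mdm2), -0.015 to 0.042 (Ccng1), -0.022 to 0.065 (Bax), -0.005 to 0.163 (Bbc3), -0.006 to 0.123 (Trp53inp1) and -0.002 to 0.101 (Phlda3). At 24 h they were -0.048 to 0.004 (Trp53), -0.19 to 0.000 (Phlda3) and -0.181 to 0.009 (Eda2r). At 48 h they were -0.044 to 0.068 (Cdkn1a), -0.026 to 0.053 (Mdm2), -0.037 to 0.109 (Ccng1), -0.152 to 0.122 (Bbc3), -0.185 to 0.066 (Pmaip1) and -0.05 to 0.224 (Eda2r). For 50 µM against DMSO they were -0.027 to 0.037 (Ccng1), -0.002 to 0.167 (Pmaip1) and -0.202 to 0.037 (Eda2r) at 3 h, -0.023 to 0.176 (Eda2r) at 24 h, and -0.057 to 0.079 (Ccng1), -0.115 to 0.107 (Trp53inp1) and -0.269 to 0.011 (Eda2r) at 48 h. Bax ran from -0.001 to 0.087 for 24 against 3 h at 10 µM, and Trp53inp1 from -0.015 to 0.075 for 48 against 24 h at 50 µM.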
